A study of Caenorhabditis elegans with 8 samples.

Results

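The comparison is that of old with young adults within a mir-83 mutant strain of Caenorhabditis elegans: the 2 libraries of adult day 12 against the 2 of adult day 4, chosen by their labels, which are 4 of the 8 RNA sequencing libraries of the study. The mutant is strain MT15501, labelled as a mir-83 mutant, and the other 4 libraries are wild-type N2 worms of the same ages. All worms grew on plates with FuDR, a drug that stops the production of progeny, so both strains and both ages carry that treatment. RNA was taken from whole worms with Trizol after the OP50 food bacteria had been washed off. Each group held 2 libraries, and no label tells whether they were grown as separate cultures. The p-values therefore reflect the spread among these libraries alone, and that spread may be technical.

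MicroRNAs are short RNAs that guide Argonaute proteins to matching transcripts and lower their translation and stability. mir-83 is the worm member of the miR-29 family, and the study asked how its loss changes gene expression at different ages. Adult worms keep their somatic cells without division. With age their muscle, cuticle and intestine decline, while the intestine of a young hermaphrodite makes large amounts of yolk for oocytes.

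Depth ran from 21.9 to 41.2 M reads in the 4 mir-83 libraries and from 20.3 to 36.9 M in those of N2. Levels are given as CPM, read counts divided by the library size after TMM scaling. TMM assumes that most genes do not change. A gene is said to rise or fall where the adjusted p of edgeR's quasi-likelihood test was under 0.05 over all genes tested. Log2 fold changes are day 12 minus day 4, with a standard error. TMM gave the young mutants factors of 0.643 and 0.596 and the old ones 1.2 and 1.22, against 1.08 to 1.23 in N2. The 10 most abundant genes held up to 14.2% of the reads in the day 4 mutants and 3.67% and 4.51% at day 12. When TMM factors were left out, the median change over all genes moved from 0.05 to 1.01, so a change between -1 and 0 on the TMM scale points upward on the other. The day 4 replicates correlated at 0.975 across genes and those of day 12 at 0.894. In replicate 1 the labels give each age its own run code, so age and run cannot be told apart there, and replicate 2 carries no such code. The identity of whole worms was checked with markers: muscle, intestine, germ line and oocyte genes were all detected. The hypodermal markers dpy-7, rol-6 and bli-1 stayed under 1 CPM in all 4 libraries, while the adult cuticle collagen col-19 of the same tissue reached 1309 and 1444 CPM at day 4. In whole worms, fewer cells of a type and less RNA per cell cannot be told apart.

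Of 15872 genes tested, 2028 were higher at day 12 in mir-83 (12.8%) and 2403 were lower (15.1%). Yolk protein, muscle, cuticle collagen, ribosomal protein and lysosomal protease genes fell, and the small heat shock genes and many F-box genes rose. The called genes moved the same way in both replicates, with median changes of 1.83 and 1.46 for those that rose and -2.8 and -1.92 for those that fell (log2 CPM, replicates 1 and 2). Over all genes, 76.3% had the same sign in both replicates, and the differences of the replicates correlated at 0.692 across genes, which are not independent. Both day 12 libraries lay above both day 4 libraries for 33.8% of genes and below them for 32.7%. Plain library sizes gave 37.3% of genes higher and 6.15% lower. All 2028 higher genes stayed among the higher ones there, 976 of the 2403 lower genes stayed lower, and 109 of the lower genes had a positive change. The counts rested on both day 4 libraries: without replicate 1 of day 4, 58 genes were higher and 464 lower, and without replicate 2, 129 and 710. Without day 12 replicate 1 the counts were 1250 and 1373, and without day 12 replicate 2 they were 2869 and 2769. Of the list members below, where 0 rose in edgeR, at most 3 per list were higher at an unadjusted p under 0.05.

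**Figure D1:**
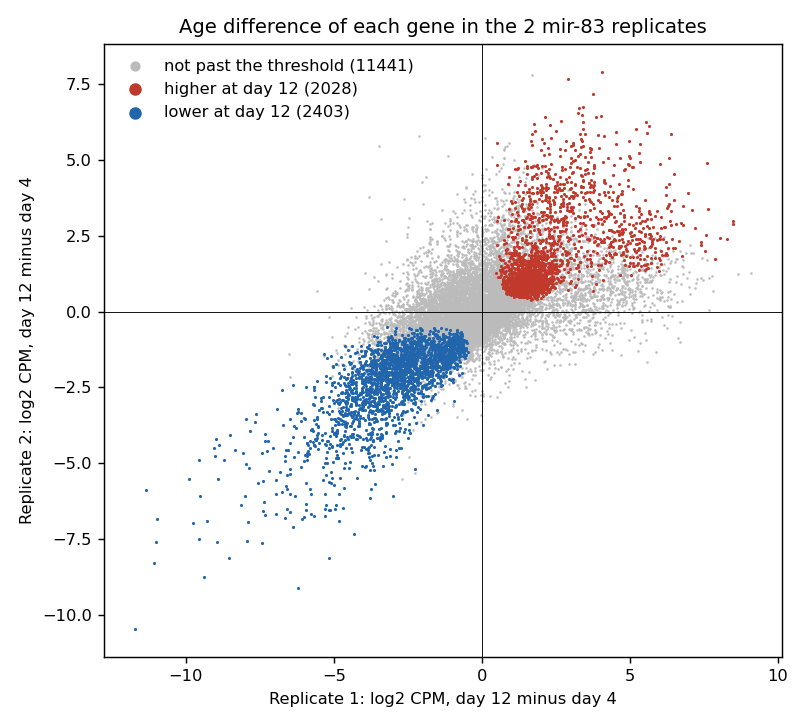
Age difference of each of the 15872 genes in replicate 1 (horizontal) and replicate 2 (vertical), as log2 CPM at day 12 minus day 4 in mir-83. Red points are the 2028 genes called higher and blue points the 2403 called lower; both sets lie in the quadrants where the replicates have the same sign, and the falls reach farther than the rises. With plain library sizes 109 of the blue genes had a positive fitted change.

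Yolk protein genes fell, among them vit-5, vit-2 and vit-6, the 3 with the most reads at day 4. Vitellogenins are lipoproteins that the intestine secretes for uptake by oocytes. All 6 vitellogenin genes fell, with a median log2 fold change of -5.78 and a range from -6.92 to -5.23, against a median of 0.05 over all genes. vit-2 (WBcel235 chromosome X, 5101042 to 5106169) stood at 37060 and 48787 CPM in the day 4 libraries and at 419 and 1333 CPM at day 12. The day 4 libraries were far above those of day 12, with no overlap, and the log2 fold change was -5.77 ± 0.52 (adjusted p = 0.00147). vit-6, the gene of the other yolk polypeptide precursor class, stood at 24040 and 31495 CPM at day 4 and at 351 and 894 CPM at day 12. Both replicates fell, with a larger fall in replicate 1 (-6.10) than in replicate 2 (-5.14). vit-3 and vit-4 are near-identical copies, so the split of reads between them is uncertain. All 6 genes still fell with plain library sizes (median -4.81) and with any one mir-83 library left out. In N2 all 6 also fell, with a median of -2.37: vit-2 went from 7079 and 6686 CPM to 1212 and 2464 CPM. At day 4 the mutant libraries were thus above the N2 libraries, and at day 12 the levels of the strains were closer. The difference of the age effects between strains was -3.72 ± 0.61 for vit-2 (adjusted p = 0.058), which did not pass.

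**Figure D2:**
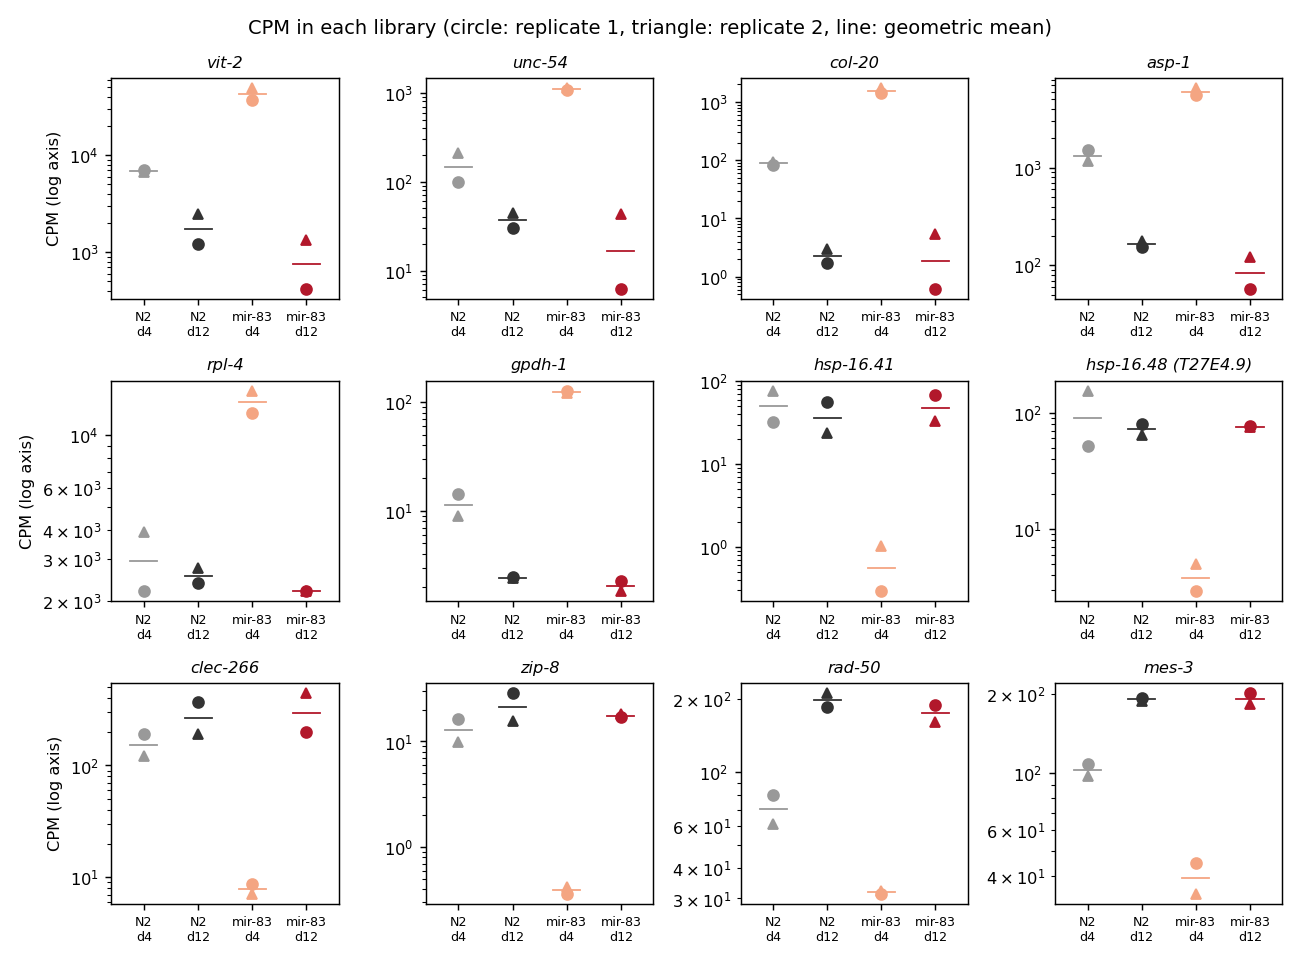
TMM-scaled CPM of 12 genes in all 8 libraries, on log axes that differ between panels. Circles are replicate 1, triangles replicate 2 and lines the geometric mean of the group. In each panel the 2 mir-83 day 4 libraries lie apart from the 2 mir-83 day 12 libraries; the first 6 genes are highest in mir-83 day 4 and the last 6 are lowest there.

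Muscle genes fell as a group. Of 41 genes of the contractile apparatus and its attachments, 29 fell and 0 rose in edgeR (median -2.67; 3.68 lower in replicate 1 and 1.98 lower in replicate 2 on the log2 scale). With plain library sizes 22 fell and 3 rose, and DESeq2 called 32 lower and 1 higher. The count was 15 without day 4 replicate 1 and 23 without day 4 replicate 2. unc-54, the major myosin heavy chain of body wall muscle, stood at 1084 and 1119 CPM at day 4 and at 6.25 and 43.8 CPM at day 12. The 2 old libraries differed from each other by more than the young ones did, yet both lay below them (-5.90 ± 0.69, adjusted p = 0.00256). tnt-2, a troponin T, went from 426 and 410 CPM to 2.18 and 8.01 CPM (-6.50 ± 0.6, adjusted p = 0.00147). myo-1 and myo-2 encode the pharyngeal myosins. myo-2 went from 48.6 and 51.2 CPM to 1.19 and 1.53 CPM, and myo-1 from 32.1 and 35.6 CPM to 0.889 and 0.646 CPM. Both fell, with log2 fold changes of -5.2 ± 0.80 and -5.46 ± 0.72 (adjusted p = 0.00532 and 0.00356). The tropomyosin gene lev-11 and the light chain gene mlc-3 were among the 10 lower genes with the smallest p, at -3.95 ± 0.30 and -5.04 ± 0.38 (adjusted p = 0.00143 for both). In N2 9 of the 41 fell, with a median of -0.92.

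Genes of the cuticle and the basement membrane fell too, and 4 of the 5 largest falls named by the rule were collagens. Of 152 cuticle collagen genes, 68 fell and 4 rose, with a median of -2.25. The 127 col genes accounted for 62 of the falls. col-93 stood at 204 and 258 CPM at day 4 and at 0 and 0.121 CPM at day 12 (-11.81 ± 0.68, adjusted p = 0.00143). col-20 went from 1452 and 1709 CPM to 0.62 and 5.41 CPM (-9.35 ± 0.84, adjusted p = 0.00147). In both replicates 105 of the 152 collagens were lower and 17 higher, with median changes of -2.80 in replicate 1 and -1.82 in replicate 2. In N2 30 of the 152 fell, with a median of -1.95. Without either day 4 library 43 collagens fell, and with plain library sizes 58 did. Of 19 basement membrane genes 7 fell and 0 rose in edgeR (1 rose in DESeq2, where 9 fell), among them the type IV collagen genes let-2 (-4.47 ± 0.71, adjusted p = 0.00581) and emb-9 (-3.86 ± 0.72, adjusted p = 0.00911). These 2 genes differed widely between the old libraries: let-2 stood at 834 and 897 CPM at day 4 and at 11.3 and 96.2 CPM at day 12. Of the basement membrane genes 3 fell without day 4 replicate 1, and 5 fell and 1 rose with plain library sizes.

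**Figure D3:**
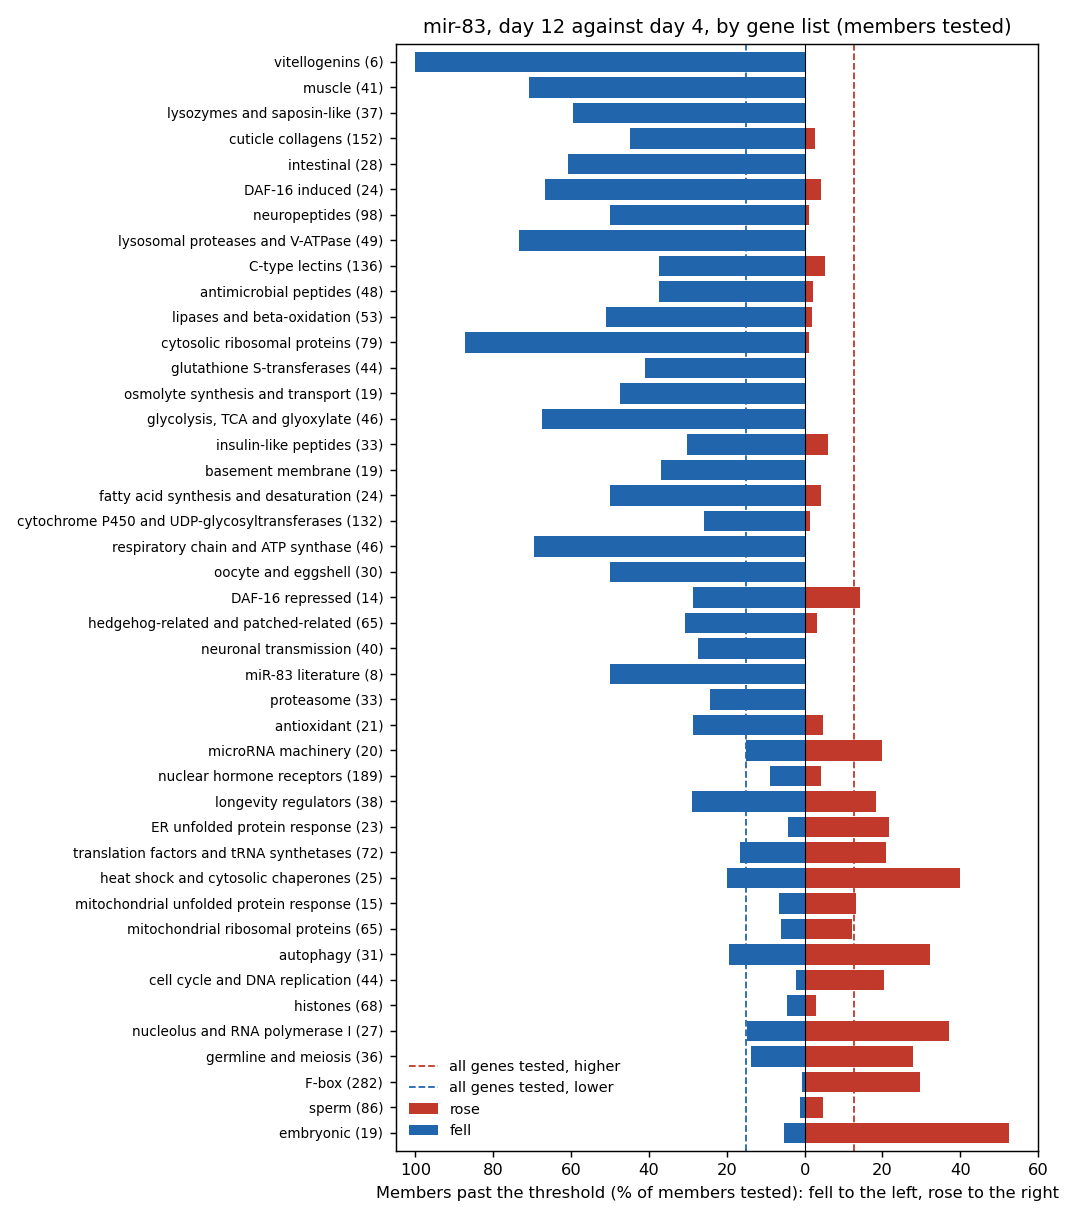
Share of the tested members of each of 43 gene lists that fell (left, blue) or rose (right, red) at day 12 in mir-83, with the number tested in brackets. Dashed lines give the share over all genes tested, 15.1% lower and 12.8% higher; vitellogenins, cytosolic ribosomal proteins, lysosomal genes and muscle genes have the longest bars to the left and embryonic genes the longest to the right. These counts are on the TMM scale, and with plain library sizes fewer genes fall and more rise.

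The protein synthesis machinery split. Of 79 cytosolic ribosomal protein genes, 69 fell (median -1.50; -1.46 in replicate 1 and -1.71 in replicate 2). The only one that rose was rpl-24.2, at 80.8 and 84.3 CPM at day 4 and 186 and 189 CPM at day 12 (1.18 ± 0.23, adjusted p = 0.00958). It was chosen after its values were seen, and yeast and human relatives of its product act in ribosome assembly in the nucleus rather than in the finished ribosome. rpl-4 stood at 12347 and 15351 CPM at day 4 and at 2209 and 2213 CPM at day 12 (-2.63 ± 0.31, adjusted p = 0.00268). The 2 old libraries were alike and both were far below the young ones. In N2, rpl-4 stood at 2201 and 3921 CPM at day 4 and at 2375 and 2754 CPM at day 12, so those 4 libraries were close to the old mutants. Of the 79 genes 0 passed in N2 in edgeR (19 lower at an unadjusted p under 0.05), with a median of -0.42. The difference of the age effects for rpl-4 was -2.41 ± 0.42 (adjusted p = 0.058) and did not pass. Under plain library sizes 30 ribosomal protein genes fell and 2 rose (median -0.54). The count was 12 without day 4 replicate 1 and 27 without day 4 replicate 2.

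The nucleolar genes of ribosome production moved in both directions. Of 27 genes of the nucleolus and RNA polymerase I, 10 rose and 4 fell. utp-20, of the small subunit processome, went from 14.9 and 21.9 CPM to 83.3 and 61.8 CPM (2.01 ± 0.32, adjusted p = 0.00569). rpoa-2, a subunit of RNA polymerase I, rose as well (1.79 ± 0.29, adjusted p = 0.00602). fib-1 and garr-1, proteins of the particles that modify ribosomal RNA, fell, at -1.56 ± 0.29 and -1.61 ± 0.40 (adjusted p = 0.00913 and 0.0221). Neither passed with plain library sizes (adjusted p = 0.109 and 0.22). Translation factors and tRNA synthetases had 15 of 72 higher (20.8%) and 12 lower (16.7%, near the 15.1% of all genes). eef-1A.1, the elongation factor with the most reads at day 12, went from 17735 and 20325 CPM to 4688 and 6359.8 CPM (-1.80 ± 0.32, adjusted p = 0.0078). Of 65 mitochondrial ribosomal protein genes 8 rose, a share near the 12.8% of all genes, and 4 fell, with a median of 0.26. Without either day 4 library the risers dropped to 0 or 2 of the nucleolar list, to 0 of the translation list and to 0 of the mitochondrial list, and without day 12 replicate 1 they were 4, 4 and 0. With plain library sizes these 3 lists had 18, 48 and 49 members higher and 0, 3 and 0 lower in edgeR, with medians of 1.55, 1.02 and 1.22.

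Energy metabolism genes were lower in the old mutants. Of 46 nuclear genes of the respiratory chain and ATP synthase, 32 fell and 0 rose in edgeR and in DESeq2 25 fell and 0 rose, with a median of -1.1. Of 46 genes of glycolysis, the TCA cycle and the glyoxylate cycle, 31 fell and 0 rose in edgeR, with 29 lower and 3 higher in DESeq2 and a median of -1.31. icl-1, the bifunctional glyoxylate cycle enzyme that lets worms make sugar from fat, stood at 3583 and 3664 CPM at day 4 and at 105 and 92.6 CPM at day 12. Both old libraries were far below both young ones (-5.21 ± 0.50, adjusted p = 0.00162). pck-1, the phosphoenolpyruvate carboxykinase of gluconeogenesis, and gpd-3, a glyceraldehyde-3-phosphate dehydrogenase, fell by 4.50 ± 0.84 and 3.08 ± 0.37 on the log2 scale (adjusted p = 0.009 and 0.00265). Scaled by plain library sizes, 12 respiratory genes fell and 5 rose (median -0.14), and 14 of the glycolysis and TCA genes fell and 7 rose (median -0.34). Both lists had 11 lower members without day 4 replicate 1, and 8 and 6 without day 4 replicate 2. In N2 0 members of either list passed in edgeR, with medians of -0.19 and 0.04. At an unadjusted p under 0.05, 3 respiratory genes were higher and 14 lower there, and 4 and 2 of the glycolysis and TCA genes.

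Genes of fat metabolism were lower as well on the TMM scale. Of 53 lipase and beta-oxidation genes 27 fell and 1 rose, and of 24 genes of fatty acid synthesis and desaturation 12 fell and 1 rose. fat-7, a stearoyl-CoA desaturase, went from 137 and 170 CPM to 0.728 and 0.787 CPM (-7.68 ± 0.95, adjusted p = 0.00293). daf-22, the thiolase of peroxisomal beta-oxidation that makes ascaroside pheromones, fell by 4.46 ± 0.46 on the log2 scale (adjusted p = 0.00209). The lipid lists rested on both day 4 libraries: without replicate 1 of day 4, 10 and 2 members fell, and without replicate 2, 14 and 2. Under plain library sizes 18 of the lipase and beta-oxidation genes fell and 9 rose (median -0.70), and of the synthesis and desaturation genes 3 fell and 5 rose (median -0.22).

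Lysosomal and gut-lumen genes fell broadly on the TMM scale. Of 49 genes of lysosomal proteases and the vacuolar proton pump, 36 fell and 0 rose in edgeR (35 lower and 2 higher in DESeq2), with a median of -1.93. The 11 aspartic protease genes of the asp family all fell (median -4.41), as did 6 of 8 cathepsin B genes of the cpr family and 16 of 20 subunits of the V-ATPase, the pump that acidifies the lysosome. Under plain scaling 7 of the 49 genes rose and the list median was -0.97. V-ATPase subunits then had 6 lower and 2 higher (median -0.44). The asp family had 9 lower and 0 higher in edgeR, and the cpr family 5 lower and 1 higher. asp-1 (chromosome V, 19049562 to 19050752) stood at 5607 and 6487 CPM at day 4 and at 57.7 and 121 CPM at day 12 (-6.12 ± 0.44, adjusted p = 0.00143). In N2 it went from 1532 and 1161 CPM to 153 and 177.9 CPM, a log2 fold change of -3.05 ± 0.38 (adjusted p = 0.0223). The difference of those effects, -3.06 ± 0.51, had an adjusted p of 0.058 and did not pass. cpr-2, singled out after its values were seen, lay the other way at 0.725 and 0.375 CPM at day 4 and 2.51 and 97.3 CPM at day 12, and did not pass (adjusted p = 0.052). The lysosomal count was 17 without day 4 replicate 1, 21 without day 4 replicate 2 and 22 with plain library sizes.

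Other intestinal genes moved with the proteases. Of 28 intestinal genes 17 fell and 0 rose in edgeR (19 and 1 in DESeq2), with a median of -2.17, and the count was 7, 9 and 10 without day 4 replicate 1, day 4 replicate 2 or day 12 replicate 1. Plain library sizes gave 10 lower and 3 higher. act-5, the actin of the intestinal brush border, went from 514 and 501 CPM to 15.2 and 23.2 CPM (-4.76 ± 0.40, adjusted p = 0.00144). elt-2, the GATA factor that defines the intestine, went from 15.1 and 16.6 CPM to 2.75 and 8.19 CPM (-1.72 ± 0.52, adjusted p = 0.0423). Its fall was smaller than that of act-5, and with plain library sizes it was -0.76 (adjusted p = 0.292). Defence genes, which were not sorted by tissue, were lower as well. Of 37 lysozyme and saposin-like genes 22 fell and 0 rose in edgeR (24 and 1 in DESeq2), with a median of -2.52. Of 136 C-type lectin genes 51 fell and 7 rose, and of 48 antimicrobial peptide genes 18 fell and 1 rose. ilys-5, an invertebrate-type lysozyme, went from 428 and 453 CPM to 15.2 and 3.69 CPM (-6.19 ± 0.76, adjusted p = 0.00293). These 3 defence lists also fell in N2, with 12, 25 and 8 members called and medians of -2.2, -1.86 and -1.29. Without day 4 replicate 1 or 2 the mutant counts were 13 and 11 of the lysozymes and saposins, 17 and 21 of the lectins and 6 and 11 of the antimicrobial peptides. Under plain scaling 35 lectin genes fell and 21 rose, 14 lysozyme and saposin-like genes fell and 1 rose, and 14 antimicrobial peptide genes fell and 3 rose. DESeq2 called 63 lectin genes lower and 14 higher. The lectin counts were 30 and 59, and those of antimicrobial peptides 13 and 29, without day 12 replicate 1 or 2.

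Genes of water balance held some of the smallest p-values. gpdh-1, the glycerol-3-phosphate dehydrogenase that makes the osmolyte glycerol, stood at 127 and 121 CPM at day 4 and at 2.26 and 1.82 CPM at day 12. hmit-1.1, a myo-inositol transporter, stood at 249 and 232 CPM at day 4 and at 7.73 and 4.36 CPM at day 12. In both genes the replicates of an age were close and the ages far apart, with log2 fold changes of -5.93 ± 0.39 and -5.39 ± 0.36 (adjusted p = 0.00143 for both). In N2 both fell less far, at -2.24 ± 0.33 and -1.97 ± 0.31 (adjusted p = 0.025 and 0.0268). The strain differences were -3.69 ± 0.46 and -3.43 ± 0.44, each with an adjusted p of 0.0544, just outside the threshold. Of 19 osmolyte genes 9 fell and 0 rose in edgeR (11 and 0 in DESeq2). The count was 5 without day 4 replicate 2 and 6 without day 4 replicate 1, and 6 fell with plain library sizes.

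Neuropeptide genes fell, and so did some genes of neuronal transmission. Of 98 neuropeptide genes 49 fell and 1 rose (median -2.03; 24 and 2 with plain library sizes), with 21 of 30 flp genes and 28 of 68 nlp genes lower. egl-3 and egl-21, the protease and carboxypeptidase that process most neuropeptides, both fell and are counted in the transmission list below. egl-3 went from 203 and 187 CPM to 7.28 and 18.5 CPM (-3.99 ± 0.47, adjusted p = 0.00259), and egl-21 from 163 and 184 CPM to 16.7 and 15.9 CPM (-3.41 ± 0.28, adjusted p = 0.00144). Of the 4 neuron markers, egl-3 and the synaptobrevin gene snb-1 fell. snb-1 went from 656 and 273 CPM to 335 and 151.6 CPM (-0.91 ± 0.26, adjusted p = 0.0345), but its change was 0.05 with plain library sizes. rab-3, of synaptic vesicles, went from 8.41 and 5.85 CPM to 1.64 and 3.01 CPM and did not pass (-1.58 ± 0.65, adjusted p = 0.102). unc-119 stood at 15.7 CPM in both young libraries and at 14.5 and 14.4 CPM in the old ones (adjusted p = 0.83). Of 40 genes of neuronal transmission 11 fell and 0 rose in edgeR (12 and 0 in DESeq2), and their median of -0.60 turned to 0.37 with plain library sizes, where 5 fell and 4 rose. Without day 4 replicate 1 or 2, 4 and 10 neuropeptide genes and 2 and 3 transmission genes fell, and without day 12 replicate 1, 28 and 5 did. In N2 5 neuropeptide genes fell.

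**Figure D4:**
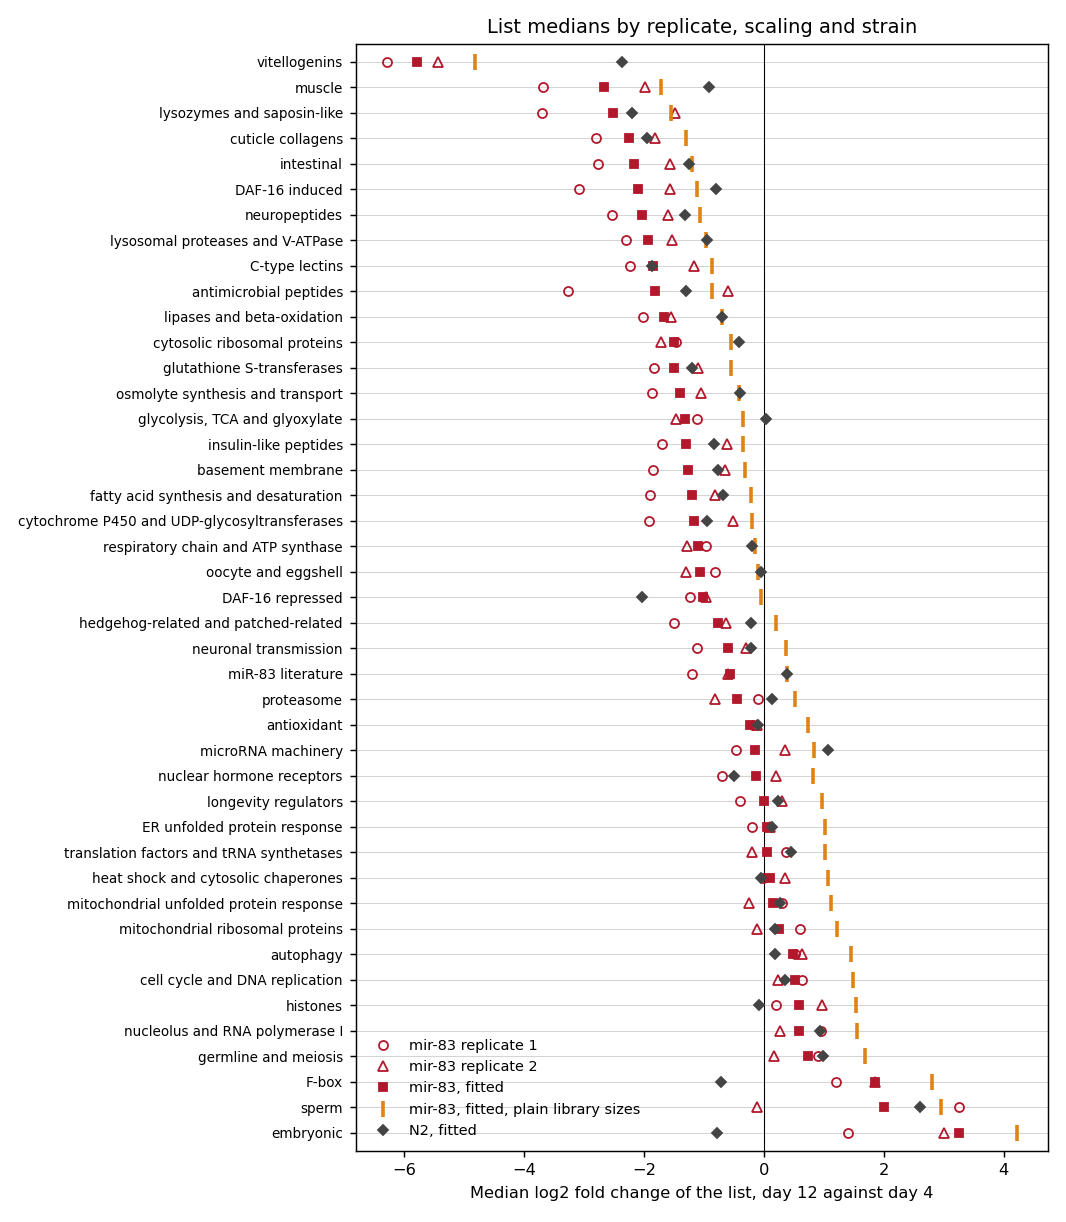
Median log2 fold change of each of 43 gene lists, day 12 against day 4: mir-83 replicates 1 (open circles) and 2 (open triangles), the mir-83 fit with TMM (squares) and with plain library sizes (orange ticks), and the N2 fit (diamonds). Plain library sizes move every list up by about the same amount, which turns the sign of lists with medians between -1 and 0. The sperm list is 3.26 in replicate 1 and -0.12 in replicate 2, and the F-box and embryonic lists are above 0 in both replicates and below 0 in N2.

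Among the rising genes, heat shock genes had some of the largest changes. The hsp-16 genes encode small chaperones that bind unfolding proteins and are low in unstressed worms. All 6 hsp-16 genes rose, with a median of 4.35 (4.71 in replicate 1 and 3.94 in replicate 2), and all 6 rose with plain library sizes as well. hsp-16.41 (chromosome V, 1805178 to 1805875) stood at 0.29 and 1.03 CPM at day 4 and at 67.9 and 32.8 CPM at day 12 (6.15 ± 0.86, adjusted p = 0.00427). In N2 it stood at 32.3 and 76.7 CPM at day 4 and at 56 and 23.7 CPM at day 12, so the N2 libraries of both ages overlapped and lay near the old mutants. The strain difference was 6.62 ± 1.05 (adjusted p = 0.058) and did not pass. The 2 copies of hsp-16.48, T27E4.3 and T27E4.9, rose by 4.39 ± 0.52 and 4.32 ± 0.50 (adjusted p = 0.00259 and 0.00256). They share reads with each other, as do the 2 copies of hsp-16.1, so the split between copies is uncertain.

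The larger chaperones did not move as one. The inducible genes hsp-70, F44E5.4 and F44E5.5, named after their values were seen, rose by 3.40 ± 0.73, 3.31 ± 0.85 and 3.26 ± 0.84 (adjusted p = 0.0137, 0.0251 and 0.0259). F44E5.4 and F44E5.5 are near-identical, so these are not 2 independent readings. hsp-70 stood at 4.13 and 5.10 CPM at day 4 and at 90.1 and 25.8 CPM at day 12. hsp-1, the constitutive Hsc70, fell from 2807 and 3301 CPM to 931 and 1319.5 CPM (-1.45 ± 0.28, adjusted p = 0.00981). hsf-1, the transcription factor of the heat shock response, rose by 1.4 ± 0.28 (adjusted p = 0.0115). hsp-90, among the 5 genes with the most reads at day 12, did not pass (-0.25 ± 0.29, adjusted p = 0.52). Of 25 heat shock and chaperone genes 10 rose and 5 fell, with a median of 0.10. In the fits without day 4 replicate 1 or 2, 4 and 5 rose and 1 fell. Plain library sizes gave 13 higher and 1 lower. Of 23 genes of the endoplasmic reticulum stress response 5 rose (21.7%) and 1 fell, with a median of 0.05. Of 15 genes of the mitochondrial one 2 rose (13.3%, near the 12.8% of all genes) and 1 fell. Scaled by plain library sizes the counts of these lists were 13 and 1, and 8 and 0 in edgeR.

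F-box genes made up the largest block of rising genes among the lists. F-box proteins are the substrate-binding parts of SCF ubiquitin ligases, and the worm families fbxa, fbxb and fbxc hold many young, similar copies, so read assignment among them is uncertain. Of 282 genes tested 84 rose and 2 fell, with a median of 1.86, or 1.49 when genes with a group at 0 reads were set to their bound. Over the list 29.8% rose, against 12.8% of all genes. The fbxb family had 49 of 97 members higher (median 3.64), fbxc 11 of 42 (median 1.96), and fbxa 24 of 143 with 2 lower. The rise was weakest in fbxa, the largest family, with a median of 0.69 (0.36 in replicate 1 and 1.01 in replicate 2). The summed level of the 282 genes was 923 and 1065 CPM at day 4 and 1702 and 2038 CPM at day 12. fbxc-40 went from 0.145 and 0.187 CPM to 7.63 and 16.22 CPM (6.09 ± 0.70, adjusted p = 0.00254). fbxb-78 had 0 reads in both day 4 libraries and stood at 0.539 and 3.47 CPM at day 12, at least 11.2-fold higher against a floor of 3 reads per library, or at least 3.01-fold by day 12 replicate 1 alone. In N2 0 of the 282 passed in edgeR, with a median of -0.71, and 10 were higher and 25 lower at an unadjusted p under 0.05. Over all genes, 4464 of 15872 were under that limit in N2. For 118 of the 282 the unadjusted p of the strain difference was under 0.05, against 2918 of all 15872 genes. None of them passed after adjustment. The call rested on both young mutant libraries: with either left out, 3 F-box genes rose, while the median was 1.98 and 1.74. When day 12 replicate 2 was left out 56 rose, and with plain library sizes 148 did.

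The 10 rising genes with the smallest p included genes of DNA repair, chromatin and small RNA pathways, for which no list was counted. rad-50, a subunit of the complex that senses DNA double strand breaks, stood at 31.4 and 32.2 CPM at day 4 and at 190 and 161 CPM at day 12 (2.46 ± 0.26, adjusted p = 0.00221). fnci-1, the worm FANCI of crosslink repair, went from 12.25 and 11.7 CPM to 69.1 and 56.8 CPM (2.39 ± 0.27, adjusted p = 0.00253). mes-3, a partner of the worm Polycomb complex that methylates histone H3 in the germ line, went from 44.9 and 34.3 CPM to 202 and 183 CPM (2.29 ± 0.24, adjusted p = 0.00211). In each of these the old libraries were well above the young ones. evl-14, a cohesion factor, rose by 2.16 ± 0.26 (adjusted p = 0.00266). rrf-2, an RNA-dependent RNA polymerase, went from 7.25 and 8.01 CPM to 48.4 and 148.5 CPM (3.52 ± 0.40, adjusted p = 0.00253), and its old libraries differed widely. In N2 rad-50, fnci-1 and evl-14 also rose (1.5 ± 0.25, 1.60 ± 0.26 and 1.24 ± 0.25, adjusted p = 0.0282, 0.0282 and 0.0372), and mes-3 did not pass (0.90 ± 0.23, adjusted p = 0.0623). The C-type lectin gene clec-266 and the bZIP factor gene zip-8 completed the leading genes. clec-266 stood at 8.63 and 7.12 CPM at day 4 and at 201 and 442 CPM at day 12 (5.40 ± 0.55, adjusted p = 0.00194). zip-8 stood at 0.362 and 0.421 CPM at day 4 and at 16.9 and 18.1 CPM at day 12 (5.45 ± 0.57, adjusted p = 0.00216). N2 libraries of both ages lay between 9.82 and 28.5 CPM for zip-8.

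The largest rises by fitted change started from 0 reads in both young mutant libraries, as did 139 of the 2028 higher genes. Against the floor of 3 reads per library, unc-39, a homeodomain transcription factor, was at least 18-fold higher and the histone gene his-31 at least 13.3-fold, with both old libraries well above the floor. For the other 3 genes the bound rested on 1 old library. nep-6, a neprilysin-type peptidase, stood at 6.74 and 0.626 CPM at day 12 and was at least 20.6-fold higher, or at least 3.5-fold by replicate 2 alone. hdl-1 stood at 4.77 and 1.07 CPM, at least 16.3-fold higher, or at least 5.98-fold by replicate 2 alone. pqn-29 stood at 0.593 and 4.62 CPM, at least 14.6-fold higher, or at least 3.31-fold by replicate 1 alone. unc-39 stood at 2.88 and 3.57 CPM at day 12 and at 1.14 to 3.44 CPM in the 4 N2 libraries, so the 2 young mutant libraries were the ones apart. In all, 416 genes tested had 0 reads in both young mutant libraries. At the other end, 12 genes tested had 0 reads in both old libraries, and 7 of them were called lower. These counts cannot be compared directly, since 3 reads stood for 0.179 CPM in the young mutants and 0.0707 CPM in the old ones.

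On the TMM scale more oocyte genes fell than rose, and more germ line genes rose than fell. Of 30 oocyte and eggshell genes 15 fell and 0 rose in edgeR (13 and 0 in DESeq2), with a median of -1.07. perm-2, a component of the eggshell permeability barrier, went from 5355 and 5637 CPM to 536 and 1506 CPM (-2.54 ± 0.44, adjusted p = 0.0069). puf-7, an RNA-binding regulator of oogenesis, fell by 2.04 ± 0.37 on the log2 scale (adjusted p = 0.00803). The median was -0.10 with plain library sizes, with 4 lower and 3 higher. Without either day 4 library 1 oocyte gene fell, and without day 12 replicate 1 or 2, 6 and 9 did. Of 36 germ line and meiosis genes 10 rose and 5 fell (median 0.73), and with plain library sizes 27 rose and 0 fell in edgeR (median 1.69). syp-1, of the synaptonemal complex, went from 27.1 and 33.2 CPM to 154 and 85.8 CPM (1.97 ± 0.32, adjusted p = 0.00608), and msh-5, of meiotic crossovers, rose by 1.84 ± 0.37 (adjusted p = 0.0111). Of the 4 germ line markers, glp-1 stood at 142.1 and 140 CPM at day 4 and at 215 and 192 CPM at day 12 and did not pass (0.53 ± 0.34, adjusted p = 0.258). Neither did pgl-1, at 318 and 324 CPM at day 4 and 342 and 281 CPM at day 12 (-0.06 ± 0.25, adjusted p = 0.874). gld-1 and glh-1 were called lower, at -0.96 ± 0.28 and -0.76 ± 0.24 (adjusted p = 0.0376 and 0.0493), but with plain library sizes they were 0.00 and 0.21. Without day 12 replicate 1 or 2, 4 and 18 germ line genes rose, and without day 4 replicate 1 or 2, 0 and 1 did.

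Sperm and embryonic transcripts differed between the old libraries. The 86 sperm genes summed to 451 and 486 CPM at day 4 and to 2774 and 412 CPM at day 12. Replicate 1 of day 12 was therefore high and replicate 2 was level with the young worms. gsp-3, a sperm phosphatase gene, stood at 2.61 and 2.76 CPM at day 4 and at 56.5 and 2.08 CPM at day 12. Of the 86 genes 4 rose (4.65%) and 1 fell (1.16%), under the 12.8% and 15.1% of all genes. The risers were 34 in DESeq2, 26 with plain library sizes, 11 with RLE factors and 12 in the 4 mir-83 libraries alone. Without day 12 replicate 2, 57 rose, and without day 12 replicate 1 or without either day 4 library 0 did in edgeR. The 29 major sperm protein genes, which are near-identical copies, had a median change of 3.20 in replicate 1 and -0.73 in replicate 2. Embryonic genes leaned to the other old library. sdz-28, an early zygotic gene, stood at 0.217 and 0.562 CPM at day 4 and at 3.56 and 25.9 CPM at day 12 (4.98 ± 0.87, adjusted p = 0.00706). Of 19 embryonic genes 10 rose and 1 fell, with a median of 3.26, or 3.03 with genes at 0 set to their bound. Replicate 1 had a median of 1.41, replicate 2 of 3.01 and N2 of -0.78. The summed level of the list was 221 and 201 CPM at day 4 and 120 and 611 CPM at day 12, so replicate 1 of the old worms was below the young ones by that measure. In the fit without day 12 replicate 2, 5 rose, and with either day 4 library left out 0 did in edgeR. Of 4 embryo markers, sdz-28 and pes-10 (0.145 and 0.0468 CPM at day 4, 1.27 and 1.47 CPM at day 12) rose, and end-1 and end-3 did not pass. Of 4 sperm markers 0 passed in edgeR, and 0 had an unadjusted p under 0.05. The part of embryos or sperm in the other rises was not tested.

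Genes known from lifespan studies moved in both directions, with 7 of 38 higher, 11 lower and a median of 0.00. sir-2.1, the worm sirtuin, stood at 19.4 and 22.6 CPM at day 4 and at 86.2 and 79.3 CPM at day 12 (1.99 ± 0.25, adjusted p = 0.00323). let-363, the TOR kinase, rose by 1.57 ± 0.24 (adjusted p = 0.00507), while aak-2, a catalytic subunit of AMP-activated kinase, fell by 1.46 ± 0.31 on the log2 scale (adjusted p = 0.0135). These 3 genes were chosen after their values were seen, and they do not stand for the list. It held more falls than rises, and its changes ran from -3.29 to 1.99. hlh-30, the worm TFEB that drives autophagy and lysosome genes, went from 217 and 122 CPM to 10 and 23.1 CPM (-3.24 ± 0.53, adjusted p = 0.00611). Its antagonist mxl-3 fell as well (-3.04 ± 0.51, adjusted p = 0.0066). Of 31 autophagy genes 10 rose and 6 fell. epg-2, an adaptor for the removal of P granule proteins, went from 7.03 and 6.74 CPM to 33.3 and 116.1 CPM (3.35 ± 0.54, adjusted p = 0.00585), and unc-51, the kinase that starts autophagy, fell by 1.85 ± 0.49 on the log2 scale (adjusted p = 0.0284). Of 24 genes induced by the insulin pathway factor DAF-16, 16 fell and 1, hsp-16.2, rose (5.05 ± 0.76, adjusted p = 0.005). The list had a median of -2.09 and a lowest change of -5.21. It is not separate from the lists above, since hsp-16.2 is one of the 6 hsp-16 genes already counted. When plain library sizes were used 19 longevity genes rose and 3 fell, 21 autophagy genes rose and 2 fell, and of the DAF-16 induced genes 2 rose and 7 fell. Without day 4 replicate 1 or 2, 1 longevity gene rose in each case and 0 and 3 fell. In the same fits 0 autophagy genes rose in edgeR, and 7 and 8 DAF-16 induced genes fell. Without day 12 replicate 1, 6 longevity, 3 autophagy and 10 DAF-16 induced genes fell.

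On the TMM scale more detoxification and signalling genes fell than rose, and with plain library sizes some of these lists reversed. Of 44 glutathione S-transferase genes 18 fell and 0 rose in edgeR (20 and 0 in DESeq2), with a median of -1.5, and gst-10 went from 80.8 and 96.5 CPM to 3.83 and 3.79 CPM (-4.53 ± 0.42, adjusted p = 0.00147). Of 132 cytochrome P450 and UDP-glycosyltransferase genes 34 fell and 2 rose, and of 21 antioxidant genes 6 fell and 1 rose. The 3 catalase genes and sod-1, the cytosolic superoxide dismutase, were the named antioxidant genes. The catalases are similar copies that may share reads. ctl-1 went from 142.4 and 192 CPM to 35.7 and 42.6 CPM (-2.09 ± 0.27, adjusted p = 0.0034) and sod-1 from 508 and 460 CPM to 171 and 170 CPM (-1.5 ± 0.23, adjusted p = 0.00556). Hedgehog-related and patched-related genes, which in worms act in the cuticle and its moulting, had 20 of 65 lower and 2 higher. Insulin-like peptides had 10 of 33 lower and 2 higher, and nuclear hormone receptors 17 of 189 lower (8.99%, under the 15.1% of all genes) and 8 higher. daf-28, an insulin of sensory neurons, went from 5.73 and 4.17 CPM to 0.269 and 0.182 CPM (-4.44 ± 0.88, adjusted p = 0.0109). Of 33 proteasome genes 8 fell and 0 rose in edgeR (6 and 0 in DESeq2), and their median of -0.44 turned to 0.52 with plain library sizes. Cell cycle and replication genes had 9 of 44 higher and 1 lower, led by the licensing factor cdt-1, which went from 22.4 and 22.6 CPM to 72.6 and 73.2 CPM (1.7 ± 0.30, adjusted p = 0.00791). Histone genes, whose copies share reads, had 2 of 68 higher (2.94%) and 3 lower (4.41%), under the 12.8% and 15.1% of all genes. Of 14 genes repressed by DAF-16 2 rose and 4 fell, and this list holds vit-2 and vit-5, already counted among the yolk genes. With plain library sizes more members rose than fell among antioxidants (11 and 2), insulin-like peptides (7 and 2), nuclear hormone receptors (35 and 3), the proteasome (10 and 0 in edgeR) and histones (17 and 1). Cell cycle genes then had 36 higher and 0 lower in edgeR. Glutathione S-transferases (2 higher and 10 lower), the P450 and glycosyltransferase list (11 and 16) and hedgehog-related genes (4 and 12) still had more lower members, and DAF-16 repressed genes had 3 and 3. Most of these counts rested on both day 4 libraries. With day 4 replicate 1 or day 4 replicate 2 left out, the falls were 1 and 5 for glutathione S-transferases, 4 and 10 for the P450 and glycosyltransferase list, 2 and 1 for antioxidants, and 5 and 6 for hedgehog-related genes. They were then 1 and 1 for insulins, 1 and 1 for nuclear receptors and 0 and 0 for the proteasome, and 0 cell cycle or nuclear receptor genes rose. Without day 12 replicate 1 the falls were 10, 15, 6, 12, 2, 5 and 6 in that order of lists, and 5 cell cycle genes rose. Without day 12 replicate 2, 5 insulins and 3 proteasome genes fell.

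The microRNA pathway and the genes linked to miR-83 were examined last. dcr-1, the Dicer nuclease, stood at 37 and 48.4 CPM at day 4 and at 195 and 137 CPM at day 12 (1.96 ± 0.28, adjusted p = 0.00465). drsh-1, the Drosha nuclease, went from 28.6 and 31.4 CPM to 89.9 and 98.7 CPM (1.65 ± 0.25, adjusted p = 0.00494). Both also rose in N2, at 1.72 ± 0.28 and 1.33 ± 0.24 (adjusted p = 0.0272 and 0.0314). lin-14, a classical target of the microRNA lin-4, fell by 2.63 ± 0.72 on the log2 scale (adjusted p = 0.0312), as did ntl-2 of the deadenylase complex (-1.58 ± 0.30, adjusted p = 0.00948). Of 20 genes of the pathway 4 rose (20%, against 12.8% of all genes) and 3 fell (15%, near the 15.1% of all genes). Under plain scaling 9 rose and 0 fell in edgeR. Without day 4 replicate 1 or 2, 0 and 1 rose and 0 fell in edgeR, and without day 12 replicate 1 or 2, 1 and 7 fell.

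Of 8 genes that the literature links to miR-83, some of which may have been picked on these samples, 4 fell and 0 rose in edgeR (3 and 0 in DESeq2). Plain library sizes left 2 lower and 2 higher, and the median of -0.57 turned to 0.39. spp-9, a saposin-like gene, stood at 1081 and 1165 CPM at day 4 and at 77.2 and 89.9 CPM at day 12 (-3.76 ± 0.35, adjusted p = 0.00147). In N2 it stood at 97.5 and 139 CPM at day 4 and at 103.7 and 243 CPM at day 12, so only the young mutants were high, and the strain difference of -4.25 ± 0.46 had an adjusted p of 0.0544. The collagen gene col-178 fell by 7.55 ± 0.89 and peb-1, a pharyngeal zinc finger factor, by 2.46 ± 0.61 on the log2 scale (adjusted p = 0.00259 and 0.0225). daf-16 went from 221 and 121 CPM to 137 and 75.4 CPM (-0.69 ± 0.22, adjusted p = 0.0491). Replicate 1 read higher than replicate 2 at both ages, and its change turned to 0.27 with plain library sizes (adjusted p = 0.25). cup-5, the lysosomal channel, stood at 82.8 and 93.2 CPM at day 4 and at 93.4 and 92.8 CPM at day 12 (0.08 ± 0.27, adjusted p = 0.833). din-1, pat-3 and cdc-42 did not pass either, with changes of 0.00, 0.46 and -0.45. Without either day 4 library, or without day 12 replicate 1, 2 of the 8 fell.

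By chromosome, the share of lower genes was greatest on X. There 21% of 2194 genes fell and 3.87% rose, against 12.0% to 16.6% lower and 9.77% to 18.2% higher on the autosomes. The median change on X was -0.64, with -1.22 in replicate 1 and -0.19 in replicate 2, and it was 0.32 with plain library sizes, where 10% fell and 16.3% rose. X remained the chromosome with the largest share of lower and the smallest share of higher genes under both scalings. N2 had a median of -0.60 on X, with 4.15% lower and 0.0456% higher. vit-2, tnt-2, spp-9 and clec-266 lie on X. The share of higher genes also grew with exonic length, taken as the union of all annotated exons of a gene. It was 6.32% in the shortest of 5 equal bins of protein-coding genes and 20.3% in the longest. The share of lower genes was 17.8% and 13.3% in those bins, without a steady course between. Reads per gene were not taken into account. The median change did not rise steadily with length in mir-83, from -0.13 in the shortest to 0.15 in the longest bin, while in N2 it went from -0.53 to 0.58.

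**Figure D5:**
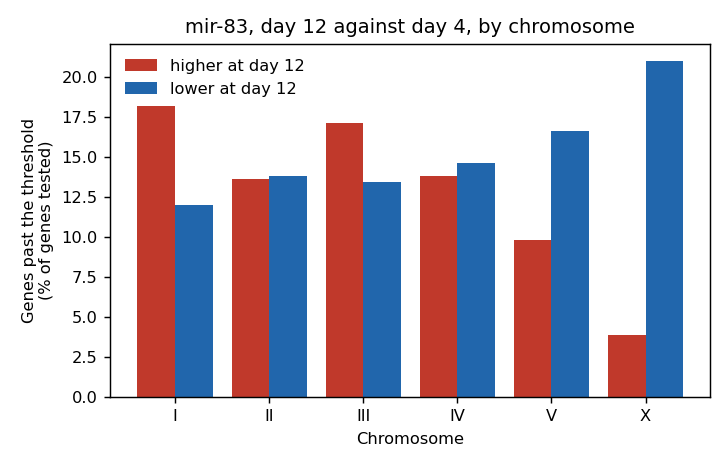
Percentage of tested genes on each chromosome that were called higher (red) or lower (blue) at day 12 in mir-83, on the TMM scale. The X chromosome has the smallest share of higher genes, 3.87%, and the largest share of lower genes, 21%; with plain library sizes these are 16.3% and 10%.

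The same comparison in N2 called fewer genes, 340 higher (2.14%) and 381 lower (2.4%). These counts, on which the N2 calls above rest, changed widely with the libraries used. In edgeR they were 0 and 0 without either N2 day 12 library (2958 and 2793 genes at an unadjusted p under 0.05), 0 and 3 without N2 day 4 replicate 1, and 33 and 371 without N2 day 4 replicate 2. They were 1300 and 1158 without mir-83 day 12 replicate 1, 1290 and 1090 without its day 12 replicate 2, and 8 and 100 or 8 and 98 without its day 4 replicate 1 or 2. DESeq2 called 1751 and 1489, and edgeR with no replicate block 48 and 88. The 2 comparisons share no library, and their fitted changes correlated at 0.622 across genes (0.65 within replicate 1 and 0.344 within replicate 2). Of the genes lower in N2, 344 were also lower in mir-83, which is 90.3% of the N2 list and 14.3% of the mir-83 list. Of the genes higher in N2, 156 were also higher in mir-83, 45.9% and 7.69% of the lists, and 22 genes were called in opposite directions. The difference of the age effects, tested gene by gene, passed for 0 genes in edgeR, with a smallest adjusted p of 0.0544, while 2918 genes were under 0.05 before adjustment and DESeq2 had 592 higher and 723 lower. The edgeR counts were 298 higher and 223 lower without day 12 replicate 1 of mir-83, 65 and 434 without its day 12 replicate 2, 5 and 21 without N2 day 4 replicate 1, and 0 and 2 without N2 day 12 replicate 1. The leading genes of that difference, all just outside the threshold at 0.0544, were spp-9, nep-17, maph-1.2 and the 2 copies of mct-2 on the lower side, and clec-266, zip-8, a copy of sdz-25 and the 2 copies of hsp-16.48 on the higher side. maph-1.2, a microtubule-associated protein gene, went from 615 and 662 CPM to 172 and 125 CPM in mir-83 (-2.16 ± 0.31, adjusted p = 0.00466), and from 130 and 79.4 CPM to 365 and 182 CPM in N2 (1.36 ± 0.31, adjusted p = 0.0486).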

How the data were processed

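Raw counts of reads per transcript were deposited by the authors, with a sheet for each replicate. Bowtie2, edgeR and the build ce11 are named per the submitters' processing notes, without versions or roles. The sources used here do not say how reads were counted over isoforms and strands. Transcripts were matched to genes of the WBcel235 annotation and summed. Of 30443 rows in the first sheet 217 (0.093% of reads) and of 29023 rows in the second 198 (0.23%) had no match and were dropped. Of the 18337 genes shared by the sheets, filterByExpr left 15872. Total deposited counts per library ran from 20.3 to 41.2 M reads, and groups at 0 were set against a floor of 3 reads per library, which covers counting error only.

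Tests used edgeR 4.0.16 (TMM, glmQLFit, glmQLFTest) with the 8 libraries in 1 fit, group means plus the replicate number as a block, and 3 residual degrees of freedom. Two-sided p-values were adjusted by Benjamini-Hochberg per comparison, and 0.05 was the threshold. The block was kept because the sheets rest on different annotations. Libraries with the same number deviated together from their group means, with correlations of 0.119 to 0.416 in 6 pairs of groups. The lowest was between mir-83 day 4 and mir-83 day 12. Sheets of different annotation can also give such correlations, so they do not show that the worms were paired. The numbers were taken as pairs by sheet. Per-replicate differences use log2 CPM (prior count 2). The test was run on simulated data before use.

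Members, the 43 gene lists and the naming rule were chosen with earlier results of these data known. The rule names 10 genes per direction by smallest p and 5 by largest change among called genes with the same sign in both replicates and at least 10 reads per library on average, up to 4 called members of each list with the largest change, the 5 per direction with the smallest p for the strain difference, and the 5 with the most reads at each age. It also names 5 genes per direction with opposite replicate differences. Others were chosen after their values were seen: rpl-24.2, cpr-2, hsp-70, F44E5.4, F44E5.5, hsp-1, hsf-1, elt-2, gld-1, glh-1, glp-1, pgl-1, gsp-3, pes-10, unc-119, rab-3, snb-1, sir-2.1, let-363 and aak-2. Alternatives were RLE factors, plain library sizes, no filter, no replicate block, the 4 mir-83 libraries alone, each library left out, DESeq2 1.42.0, an adjusted p under 0.01 and a 2-fold minimum. R 4.3.3 and Python 3.11.15 were used. The microRNA itself, and sequences, were not analysed here.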

Additional observations from a re-analysis of the deposited data

How the results depend on the processing

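The main counts were 2028 higher and 2403 lower genes. RLE factors, no filter, the 4 mir-83 libraries alone and a 2-fold minimum gave counts within 1.5 times of these. DESeq2 called 3471 higher, an adjusted p under 0.01 left 410 and 891, and plain library sizes gave 5917 and 976. Leaving out 1 library gave 58 to 2869 higher and 464 to 2769 lower. Without the replicate block 1848 and 1829 genes passed and the strain difference had 0 and 0 in edgeR (2367 genes under 0.05 before adjustment); of 240 named genes, 18 lost their call without the block, 35 with plain library sizes, 124 or 113 without day 4 replicate 1 or 2, and 44 or 19 without day 12 replicate 1 or 2. The strain difference, 0 and 0 as reported, gave 592 and 723 with DESeq2, 12 and 22 with RLE factors, 89 and 224 without the filter and 1637 and 108 with plain library sizes. With 1 library left out it gave 0 to 298 higher and 0 to 434 lower. The cause of these shifts was not tested. With plain library sizes daf-16 turned to 0.27, gld-1 to 0.00, glh-1 to 0.21 and snb-1 to 0.05. Of 43 list medians, 36 moved with plain library sizes and 8 or 6 with replicate 1 or 2 alone. With 2 libraries per group, a left-out library leaves its group with a lone sample, assumed to vary like the others.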

Other observations

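Some of the genes tested moved in opposite directions in the 2 replicates of mir-83. Of the 15872 genes, 280 had age differences over 1 on the log2 CPM scale with opposite signs. The 5 with the widest such rise in replicate 1 were msp-152, msp-65, msp-3, msp-31 and msp-59, all of the sperm list described above. msp-152 stood at 7.54 and 4.64 CPM at day 4 and at 32.8 and 1.41 CPM at day 12, and its fitted change was 0.76 ± 1.2 (adjusted p = 0.65). On the other side, pals-26, of a family with members induced by intracellular infection, stood at 34 and 2.01 CPM at day 4 and at 5.5 and 27.2 CPM at day 12. drd-10 stood at 3.7 and 3.23 CPM at day 4 and at 0.62 and 28.1 CPM at day 12. None of the genes named here passed the test.

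With genes put in 5 equal bins by abundance, the share of lower genes was 2.52% in the bin with the fewest reads and 28.8% in the bin with the most, and the share of higher genes was 6.36% and 13.7%. The course between was not steady. From the lowest bin to the highest the median changes were 0.64, 0.04, -0.25, 0.26 and -0.23. The share of higher genes was greatest in bin 4, at 22.9%.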
